A study of Rattus norvegicus with 6 samples.

Results

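These results describe 935 nuclei of the rat nucleus accumbens shell that carried Trpc4 message together with that of Baiap3, Glra3 or Prlr, out of 37456 nuclei kept, or 2.5%. A nucleus was kept with at least 500 unique molecular identifiers (UMIs, each standing for 1 captured RNA molecule), at least 300 genes and under 5% of its UMIs from mitochondrial genes. A kept nucleus belonged to the set when it had at least 2 UMIs of Trpc4, at least 1 UMI of any of Baiap3, Glra3 or Prlr, and fewer than 5 UMIs of Pde10a. These are called the Trpc4-rule nuclei below, and the 5 genes that chose them are given as a description with no test.

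The study compared the sexes by single-nucleus RNA sequencing in 3 female and 3 male libraries. Each library pooled 4 Long-Evans rats of 1 sex that had received no treatment named in the labels, were housed in same-sex pairs after weaning and were killed at 90 to 100 days of age. The shell was punched from frozen slices 200 µm thick, and libraries were made with the 10x Genomics 3′ chemistry after 11 cycles of cDNA amplification. The strain is listed as a characteristic only for female library 3 and male library 1, and this division of the labels, called the label set here, is the only grouping beyond sex that the labels give; since each library is a pool, p-values measure the spread between pools and not between animals.

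Trpc4 encodes a cation channel that opens downstream of receptors coupled to Gq proteins and phospholipase C. Prlr is the prolactin receptor, which signals through JAK2 and STAT5, Glra3 is an alpha subunit of the inhibitory glycine receptor, and Baiap3 is a Munc13-related protein that acts in the release of dense core vesicles. The lateral septum, which lies medial to the accumbens shell, is a GABAergic region in which Trpc4 is prominent, whereas Pde10a is a cyclic nucleotide phosphodiesterase abundant in the spiny projection neurons that make up most of the accumbens.

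The libraries were uneven in size, with 2873 to 16504 kept nuclei, and the median kept nucleus had 3131 to 5049 UMIs. Barcodes lost to the mitochondrial limit ranged from 1.55% (female library 3) to 40.7% (female library 2). Kept nuclei outside the rule carried Rgs9 at 440 CPM (counts after every library is brought to one total) and Drd2 at 168 CPM, which are defining genes of the spiny neurons of the labelled tissue. Nuclei of the 2 clusters in which Slc17a7, the vesicular glutamate transporter of cortical neurons, outweighed Gad1 and Gad2 numbered 1744 in female library 3, 449 in male library 1, 2 in female library 2 and 0 in the others. Among kept nuclei 166 barcodes occurred in more than 1 library, and 0 of these were Trpc4-rule nuclei.

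The Trpc4-rule nuclei came from all 6 libraries, with 107, 19 and 500 in female libraries 1, 2 and 3 and 225, 43 and 41 in male libraries 1, 2 and 3. They held 8145531 UMIs in all. Their median depth was 7747 UMIs, against 4290 in the other kept nuclei, and the rule itself counts UMIs. Of the 935, 397 sat at the lower bound of 2 UMIs of Trpc4, 195 had 3 and 343 had 4 or more. Glra3 was the commonest partner gene, present in 657 nuclei (70.3%), followed by Baiap3 in 423 (45.2%) and Prlr in 258 (27.6%). All 3 partners occurred together in 71 nuclei (7.59%), whereas Glra3 was the only partner in 361, Baiap3 in 163 and Prlr in 79. Reln, which encodes a large secreted glycoprotein of the extracellular matrix and was listed with these nuclei as a marker, had a UMI in 285 (30.5%). Reln and Prlr were both present in 96, and 488 nuclei (52.2%) had neither.

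Just outside the rule, 819 nuclei met every other condition but had 1 UMI of Trpc4, and 727 had no UMI of a partner gene. Their median depths were 5712 and 6708 UMIs, and Reln was present in 21.7% and 25.4% of them. The counterpart of the first group, the Trpc4-rule nuclei with 2 UMIs of Trpc4, had Reln in 23.2% and a median of 6637 UMIs. The counterpart of the second, all Trpc4-rule nuclei, had Reln in 30.5% and a median of 7747 UMIs. A further 778 nuclei failed only by having 5 or more UMIs of Pde10a, with a median depth of 18108 UMIs. The 101 of these with exactly 5 UMIs had Reln in 35.6%, and the 110 Trpc4-rule nuclei with 4 UMIs of Pde10a had it in 29.1%. Reln was thus less frequent outside the Trpc4 and partner bounds, where nuclei were also less deep, and more frequent just outside the Pde10a bound. These differences were not tested.

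The levels of the rule genes, as CPM summed over the Trpc4-rule nuclei of a library, varied little for Trpc4 and more for its partners. Trpc4 stood at 329, 485 and 451 CPM in female libraries 1 to 3 and at 438, 506 and 427 CPM in male libraries 1 to 3 (439 ± 61.7, SD, n = 6). Prlr stood at 97.7, 91.0 and 60.3 CPM in the females and 64.5, 116 and 57.9 CPM in the males (81.2 ± 23.8). The highest Prlr level was in male library 2 and the lowest in male library 3, so the sexes overlapped. Glra3 ranged from 170 CPM in male library 3 to 272 CPM in male library 1, and Baiap3 from 63.7 CPM in female library 3 to 221 CPM in male library 3. Reln ranged from 152 CPM in female library 1 to 354 CPM in female library 2 (232 ± 74.6). Ambient RNA was gauged in 1 cluster led by oligodendrocyte genes, with 3516 nuclei at a median of 1719 UMIs. Trpc4 stood there at 7.29 CPM, Prlr at 2.80 CPM and Reln at 5.61 CPM, each with a UMI in about 1% of nuclei. Pde10a, which the rule limits, was no lower there than over the Trpc4-rule nuclei. Some other clusters led by glial genes had higher Trpc4 and Reln, and some had similar or lower Trpc4. The part of ambient RNA in the choice of nuclei was not tested.

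To see whether nuclei chosen on 5 genes were alike in their other genes, all kept nuclei were clustered with the rule genes left out. The Trpc4-rule nuclei fell in 19 of 26 clusters. The largest group, 273 nuclei (29.2%, 95% Wilson interval 26.4 to 32.2%), lay in cluster 11, whose leading genes were Bnc2, Reln and Ebf1, followed by Trpc4, Glra3, Prlr and Baiap3 although those had taken no part in the clustering. Cluster 21, led by Trabd2b, Ndst4, Pdzrn3 and Slc17a7, held 176 (18.8%). Cluster 14, led by Sema3c, Lypd6b and Lhx8, held 126 (13.5%), and cluster 19, led by Chst9, Col14a1 and Grm8, held 86 (9.20%). Cluster 0, led by Tacr1, Nos1 and Sst, held 62 (6.63%), and cluster 22, led by Il1rapl2, Egfr, Kcnip1 and Kit, held 48 (5.13%). The label under which these nuclei were proposed, septal neurons with Trpc4 and Prlr, therefore does not describe most of them, since most lay outside the cluster that Reln led. They are treated below as a set defined by its rule.

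The makeup varied between libraries. Cluster 11 held 25.2, 26.3 and 26.4% of the Trpc4-rule nuclei in female libraries 1 to 3 and 37.3, 27.9 and 31.7% in male libraries 1 to 3. Cluster 21 was 1 of the 2 clusters in which Slc17a7 outweighed Gad1 and Gad2. It gave 143 of the nuclei in female library 3 and 33 in male library 1. It gave 0 in the other 4 libraries, which held almost none of its nuclei. Cluster 14 gave 39 of the 107 nuclei of female library 1. Clusters of glia held further members: 38 lay in the cluster led by Mog and Mobp and 34 in that led by Slc1a2 and Slc1a3, and of the nuclei in these clusters a doublet score marked 40.1% and 48.6%. Among all 935 it marked 59, of which 46 were among the 500 of female library 3. The number marked was set by library size. It came to 13.2% of all kept nuclei in female library 3 and 2.30 to 7.04% in the other libraries.

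**Figure D1:**
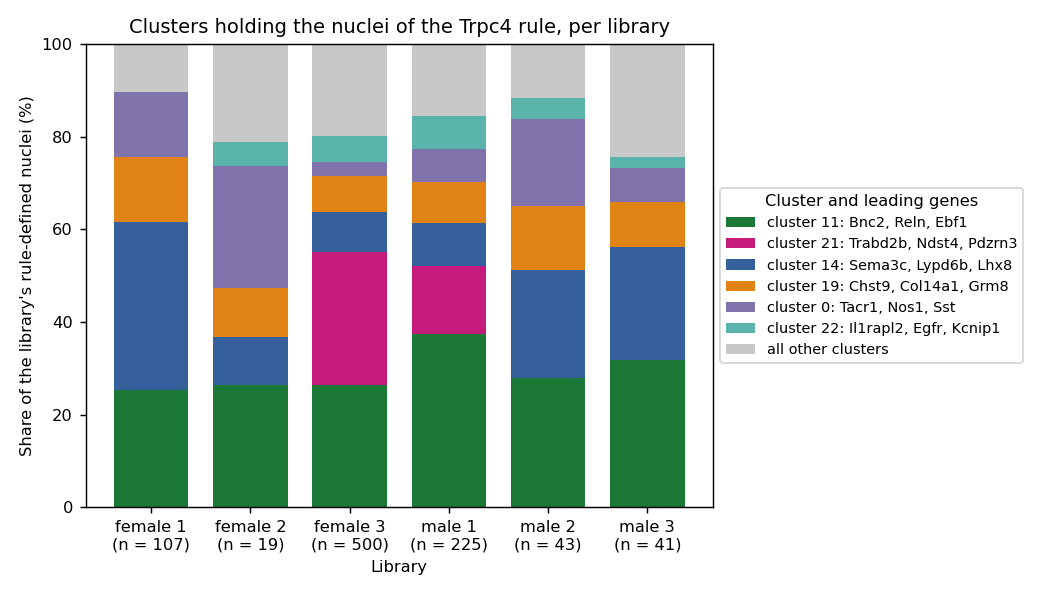
Share of each library's Trpc4-rule nuclei (vertical axis, %) that lay in each of 6 clusters, named by their leading genes, or in all other clusters; 1 bar per library with its number of nuclei. Cluster 11 made up 25.2 to 37.3% of every bar, and cluster 21 appeared in female library 3 and male library 1 and in no other.

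Deeper Trpc4 signal went with cluster 11. Of the nuclei with 2 UMIs of Trpc4, 22.7% were in it, of those with 4 or more 39.7%, and of the 37 nuclei with 10 or more 75.7%. Of those 37, 67.6% had a Reln UMI. Of the nuclei with Reln, 49.8% were in cluster 11, and of those with neither Reln nor Prlr 17.0%. These shares describe the chosen nuclei, since Trpc4 and Prlr chose them and Reln took part in the clustering.

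The Trpc4-rule nuclei of cluster 11 were GABAergic in their transmitter genes and held most of the Zic1 and Zic4 UMIs of the set. Gad1 and Gad2, the enzymes that make GABA, stood at 439 and 484 CPM in them, and Slc17a7 at 5.02 CPM. Reln stood at 612 CPM with a UMI in 52% of the nuclei, Prlr at 124 CPM in 37%, Bnc2, a zinc finger protein, at 88.9 CPM and Ebf1, a helix-loop-helix factor, at 232 CPM. By library, Reln in these nuclei was 356 CPM in female library 1, 731 in female library 3, 578 in male library 1, 661 in male library 2 and 172 in male library 3, with too few nuclei in female library 2. The level in male library 3 was the lowest, and no order by sex was seen. Cluster 11 held 65.6% of all Reln UMIs of the Trpc4-rule nuclei, 76.0% of Bnc2, 73.7% of Ebf1, 64.1% of Ano1, a calcium-activated chloride channel, and 44.2% of Prlr, although it held 24.5% of their UMIs over all genes. Zic1 and Zic4, zinc finger factors of the developing septum, had 75.5% and 64.0% of their UMIs there, yet only 8.45% of the Trpc4-rule nuclei had a UMI of Zic1 and 12.3% one of Zic4. Other septal list genes were mixed. Cluster 11 held 80% of the UMIs of Zic2 and 50% of those of Zic5, which had only 20 and 10 UMIs in the set. It held 29.3% of the UMIs of Dgkg, 26.3% of those of Dach2, 24.1% of those of Tacr1, 7.14% of the 28 of Crhr2 and 0% of the 15 of Met. Of the Ndst4 UMIs it held 7.41%, and 57.3% lay in cluster 21.

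Prlr was not confined to that cluster. In cluster 14, with Lhx8 at 146 CPM, Prlr stood at 120 CPM and had a UMI in 49% of the Trpc4-rule nuclei, close to the 124 CPM and 37% of cluster 11, and that cluster held 29.1% of the Prlr UMIs. Elsewhere Prlr was lower, at 75.2 CPM in cluster 22, 35.9 CPM in cluster 0, 22.7 CPM in cluster 19 and 19.7 CPM in cluster 21. In the nuclei of cluster 11 outside the rule Prlr stood at 62.7 CPM, Trpc4 at 149 CPM and Reln at 295 CPM. Since the rule chose on Prlr, these levels are a description.

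The other clusters gave the set its remaining signals. Cluster 0 held 53.7% of the UMIs of Sst, the neuropeptide somatostatin, and 34.5% of those of Nos1, the neuronal nitric oxide synthase, with Sst at 653 CPM and Nos1 at 620 CPM in its Trpc4-rule nuclei. Npy, which such interneurons often carry, had 1 UMI in all 935 nuclei. Slc17a7 stood at 196 CPM in cluster 21, with a UMI in 79% of the nuclei, and that cluster held 75.9% of the Slc17a7 UMIs, 78.5% of those of Adamts2 and 76.0% of those of Prss12. Cluster 19 was set apart by Chst9 at 1997 CPM and Foxp2, a forkhead factor, at 4636 CPM. Over the whole set 790 nuclei (84.5%) had a UMI of Gad1 or Gad2, 226 (24.2%) one of Slc17a6 or Slc17a7, 131 both and 50 neither.

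**Figure D2:**
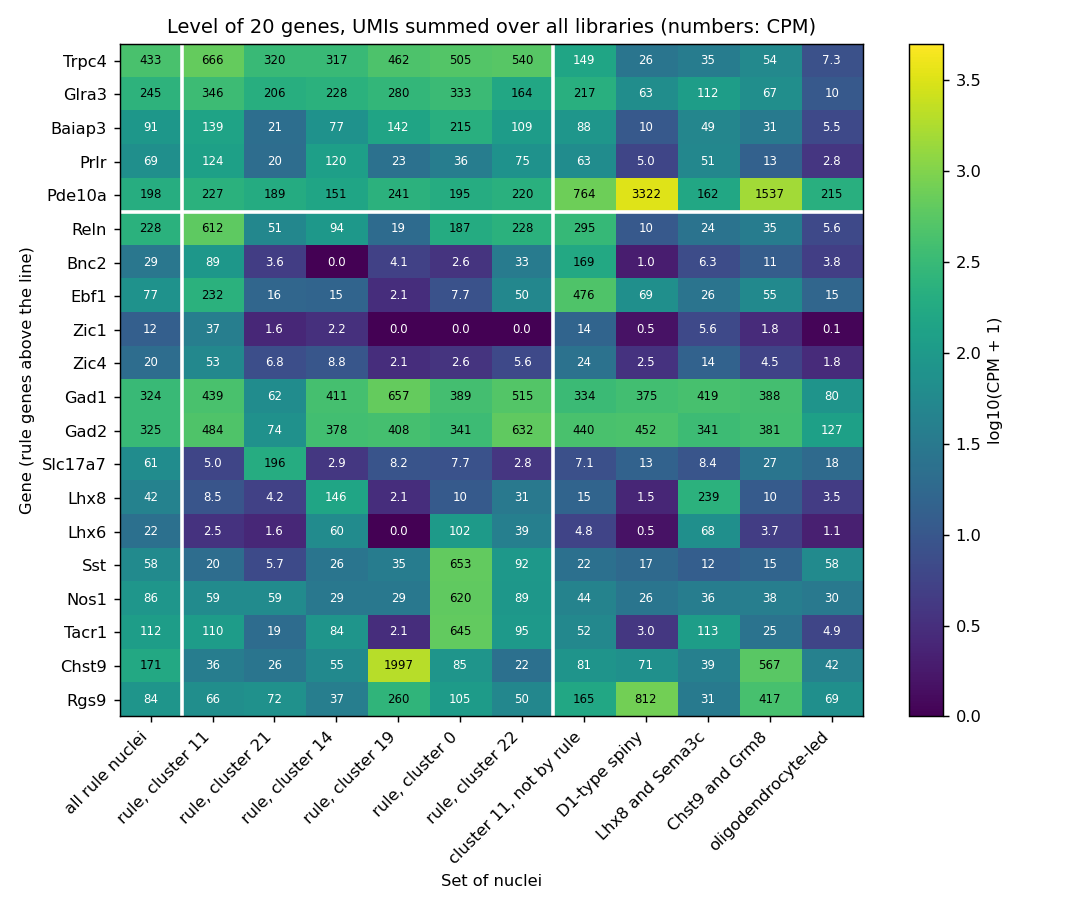
Level of 20 genes (rows) in 12 sets of nuclei (columns), as CPM from UMIs summed over all libraries; the numbers are CPM and the colour is log10(CPM + 1). The columns between the white lines are the Trpc4-rule nuclei of 1 cluster each. Reln is highest in cluster 11 (612 CPM), Sst and Nos1 in cluster 0 (653 and 620 CPM), Slc17a7 in cluster 21 (196 CPM) and Prlr is near equal in clusters 11 and 14 (124 and 120 CPM).

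The first comparison by sex asked whether the share of such nuclei differed between females and males. Trpc4-rule nuclei made up 3.38% (95% Wilson interval 2.80 to 4.07%) of the kept nuclei in female library 1, 0.661% (0.424 to 1.03%) in female library 2 and 3.03% (2.78 to 3.30%) in female library 3. In male libraries 1 to 3 they made up 2.56% (2.25 to 2.91%), 1.39% (1.03 to 1.86%) and 1.36% (1.0 to 1.84%). Both the highest and the lowest share were in females, so the groups overlapped. The mean was 2.36 ± 1.48% in females and 1.77 ± 0.684% in males (SD, n = 3 each), a difference of 0.588 percentage points (exact 2-sided permutation test, p = 0.6; the smallest p this design allows is 0.1). Within the label sets the difference was 0.471 points between female library 3 and male library 1 and 0.646 points among the other 4. Without female library 1 the difference was 0.0772 points and without female library 2 it was 1.44 points (exact permutation p = 0.2). The intervals cover counting error only.

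Because the rule counts UMIs, the shares were also taken at 1 depth. When every nucleus with at least 2000 UMIs was thinned to that number, 175 of 29836 nuclei met the rule, and the share was 0.556 ± 0.248% in females and 0.312 ± 0.166% in males (exact 2-sided permutation test, p = 0.2). All bounds were applied anew to the thinned counts, so nuclei over the Pde10a limit at full depth could then meet the rule. The thinned shares were 0.550, 0.311 and 0.808% in female libraries 1 to 3 and 0.501, 0.245 and 0.189% in male libraries 1 to 3, with female library 3 the highest and male library 3 the lowest. They rested on 1 random draw, with 14, 7 and 109 nuclei in the females and 35, 6 and 4 in the males. For the Trpc4-rule nuclei of cluster 11 alone the share was 0.609% in females and 0.591% in males (p = 1, exact permutation test), and the difference was -0.155 points between female library 3 and male library 1 and 0.104 points among the other 4.

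**Figure D3:**
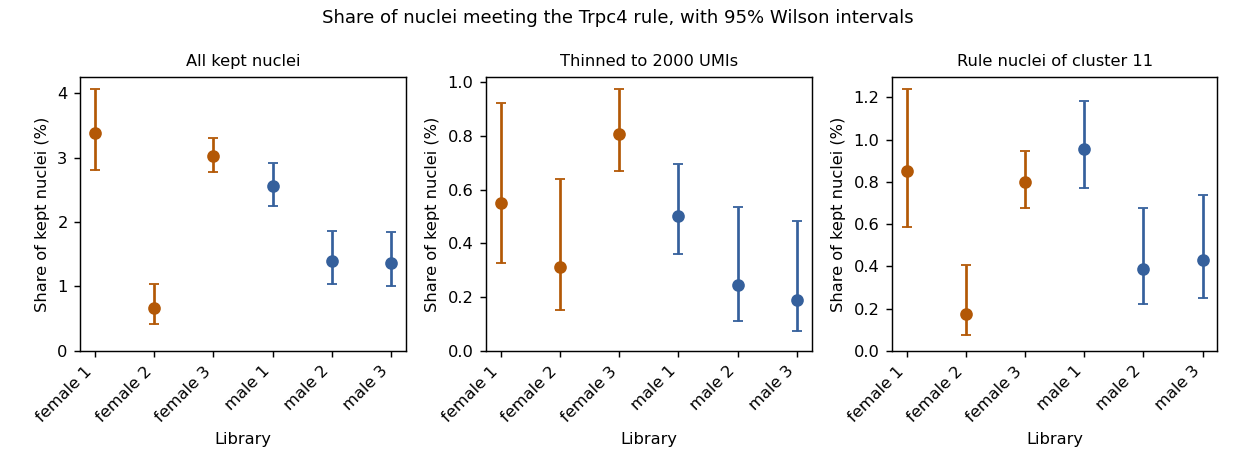
Share of kept nuclei (vertical axes, %) meeting the Trpc4 rule in each library, for all kept nuclei, after thinning to 2000 UMIs, and for the rule nuclei of cluster 11; bars are 95% Wilson intervals. Female library 2 is the lowest and female library 1 the highest before thinning, at 0.661% and 3.38%.

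The second comparison asked which genes differed by sex within the Trpc4-rule nuclei, using UMI counts summed per library. Of 10712 genes tested 8 passed an adjusted p of 0.05, or 0.0747%, with 2 higher (0.0187%) and 6 lower (0.056%) in females (edgeR quasi-likelihood test with the label set as a term, Benjamini-Hochberg adjustment); at an unadjusted p under 0.05 there were 553. Female library 2, with 19 nuclei, was left out of this fit. Genes of the Y chromosome checked the labels. Kdm5d, a histone demethylase, stood at 1.84, 10.1 and 2.21 CPM in female libraries 1 to 3 and at 102, 155 and 116 CPM in male libraries 1 to 3 (log2 fold change, female minus male, -5.60 ± 0.36 SE, adjusted p = 2.09e-09). Eif2s3y, a translation factor subunit, was at 0.921, 0 and 0.245 CPM in females and 58.8, 45.1 and 61.5 CPM in males (-6.87 ± 0.54, adjusted p = 7.12e-08). The male libraries were above the female ones for both genes without overlap. Ddx3 had 0 UMIs in every female library and 91.9, 119 and 76.0 CPM in male libraries 1 to 3. LOC680227, which carries no gene name in the files, ran the other way, at 2814, 1122 and 309 CPM in females and 2.18, 0 and 3.62 CPM in males.

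Beside these, AABR07039356.2 was higher in females, and AC241873.1, AC239701.4 and LOC108348172 were lower. LOC108348172 stood at 82.0, 303 and 28.2 CPM in female libraries 1 to 3 and 90.2, 132 and 224 CPM in male libraries 1 to 3, so that female library 2, outside the fit, exceeded every male (log2 fold change -1.33 ± 0.23, adjusted p = 0.0156, edgeR). With female library 2 in the fit its log2 fold change was -0.94 and it did not pass. Nor did it pass without female library 3 or male library 1. The count of genes passing depended on single libraries: it was 14 without female library 3, 21 without male library 1, 24 without male library 2 and 27 without male library 3, where 18 were higher and 9 lower in females.

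The levels of Trpc4 and Prlr overlapped between the sexes and are described without a test, since they chose the nuclei. Of the steroid and hormone receptor list, which holds none of the rule genes, 0 of 16 tested genes passed by sex, beside 0.0747% of all genes, so the count is no result about the list. The log2 fold change, female minus male, was -0.29 for Esr1, the estrogen receptor alpha, and 0.21 for Pgr, the progesterone receptor. Esr1 stood at 70.0, 30.3 and 30.2 CPM in female libraries 1 to 3 and 47.5, 74.1 and 65.1 CPM in male libraries 1 to 3. The sexes overlapped.

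The 5 genes next in order of p were Tac1, LOC108352650, Homer1, Sst and Apoe, and none passed with all 5 libraries. Tac1, the precursor of substance P, stood at 61.7, 344 and 36.0 CPM in female libraries 1 to 3 and 63.2, 161 and 195 CPM in male libraries 1 to 3 (log2 fold change -1.11 ± 0.23, adjusted p = 0.107, edgeR). Tac1 passed without male library 1, 2 or 3 (adjusted p of 0.0321, 0.0306 and 0.0148), and Sst and LOC108352650 passed without male library 2 (0.00941 each, edgeR). Homer1, a postsynaptic scaffold and immediate early gene, stood at 256, 101 and 714 CPM against 414, 145 and 137 CPM (0.87 ± 0.20, adjusted p = 0.219, edgeR); without male library 3 it passed with an adjusted p of 0.00245. Homer1 was highest in female library 3 and male library 1, the libraries of the label set in which cluster 21 occurs. Sst was at 99.5, 425 and 23.5 CPM against 46.2, 148 and 279 CPM and was lowest in those same libraries.

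To see what the Trpc4-rule nuclei share beyond the rule, their summed counts were set against 3 other sets of nuclei. Both sides came from the same libraries, with the library as a block. The sets are defined by rules and are not all distinct kinds of neuron. Trpc4-rule nuclei also lay in the cluster led by Sema3c and Lhx8 and in that led by Chst9 and Grm8. D1-type spiny nuclei, of the direct striatal output, had Drd1 at 2 or more UMIs, Pde10a at 5 or more and no Drd2, and numbered 134, of which 37 in female library 3, 44 in male library 1 and 25 in male library 2 entered the fit. Nuclei with Lhx8 and Sema3c, a combination of basal forebrain and pallidal neurons, numbered 313, fitted in female libraries 1 and 3 and male libraries 1 and 3. Nuclei with Chst9 and Grm8, without those that met the D1-type or the Lhx8 and Sema3c rule, numbered 2531, fitted in every library except female library 2. All 3 comparisons share the Trpc4-rule nuclei, so their values are given side by side and are not independent.

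Against D1-type nuclei 1326 of 8785 genes passed (15.1%), 573 higher and 753 lower in the Trpc4-rule nuclei. Against Lhx8 and Sema3c nuclei 1043 of 9403 passed (11.1%), 593 higher (6.31%) and 450 lower (4.79%), and against Chst9 and Grm8 nuclei 2326 of 11453 (20.3%), 1142 higher and 1184 lower (edgeR, adjusted p of 0.05). Single libraries weighed on these counts. Without male library 1, which leaves 2 libraries in the D1-type comparison, they were 292, 490 and 1396, and without female library 3 the count against Lhx8 and Sema3c nuclei was 367.

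Apart from Reln, which was picked as a marker of these nuclei and is described only, 11 genes led those higher in all 3 comparisons. Drc1, a subunit of the dynein regulatory complex of cilia, stood at 29.5, 30.3 and 44.9 CPM in female libraries 1 to 3 and 44.9, 77.4 and 76.0 CPM in male libraries 1 to 3. It was at 7.15 to 14.9 CPM in the D1-type nuclei of 3 libraries, 5.63 to 11.5 CPM in the Lhx8 and Sema3c nuclei of 4 and 8.46 to 16.6 CPM in the Chst9 and Grm8 nuclei of 6. Every library's Trpc4-rule nuclei were above every library of the comparison nuclei. Its log2 fold changes were 2.15 ± 0.33, 2.73 ± 0.27 and 1.58 ± 0.20 (SE), with adjusted p of 0.00100, 5.29e-05 and 0.000105 (edgeR). Cluster 11 held 44.3% of the Drc1 UMIs. Without male library 1 the adjusted p against D1-type nuclei was 0.0533.

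Adra1a, an alpha-1 adrenergic receptor coupled to Gq, was also higher in all 3. It stood at 174, 152 and 112 CPM in female libraries 1 to 3 and 141, 151 and 123 CPM in male libraries 1 to 3, above the 12.8 to 51.2 CPM of D1-type nuclei, the 39.4 to 81.4 CPM of Lhx8 and Sema3c nuclei and the 38.0 to 72.5 CPM of Chst9 and Grm8 nuclei, without overlap. The log2 fold changes were 1.60 ± 0.25, 1.37 ± 0.15 and 1.25 ± 0.13, with adjusted p of 0.00111, 0.000102 and 1.76e-05 (edgeR). Cluster 14 held 27.1% of the Adra1a UMIs. With the Trpc4-rule nuclei of cluster 11 alone it did not pass against D1-type nuclei (adjusted p = 0.0914) or Chst9 and Grm8 nuclei (adjusted p = 0.0571, edgeR), and without male library 1 its adjusted p against D1-type nuclei was 0.0644.

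Rftn1, a protein of lipid rafts, stood at 73.7, 101 and 117 CPM in female libraries 1 to 3 and 100, 87.0 and 43.4 CPM in male libraries 1 to 3. The Chst9 and Grm8 nuclei had 12.7 to 37.7 CPM, below all of these, and the Lhx8 and Sema3c nuclei 19.2 to 46.5 CPM, overlapping with male library 3. Its log2 fold changes were 2.29 ± 0.28, 1.37 ± 0.20 and 1.94 ± 0.14, with adjusted p of 0.000200, 0.000598 and 1.08e-06 (edgeR), and cluster 21 held 40.9% of its UMIs. Moxd1, a monooxygenase related to dopamine beta-hydroxylase, stood at 49.7, 60.7 and 22.3 CPM in females and 42.7, 48.4 and 43.4 CPM in males, against at most 17.7 CPM in any library of the comparison nuclei (log2 fold changes 1.81, 1.54 and 1.52). Without male library 1 it did not pass against D1-type nuclei (adjusted p = 0.119), nor against Lhx8 and Sema3c nuclei without male library 1 (0.0681) or male library 3 (0.0532, edgeR). Its UMIs lay in cluster 0 (35.1%) and cluster 22 (18.5%), and in the Trpc4-rule nuclei of cluster 11 it stood at 4.01 CPM.

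Several of the 11 genes followed 1 cluster each. Sst had log2 fold changes of 2.16 ± 0.30, 2.72 ± 0.24 and 2.01 ± 0.17, with adjusted p of 0.000484, 2.55e-05 and 4.95e-06 (edgeR), but its levels ran from 23.5 CPM in female library 3 to 425 CPM in female library 2 and overlapped with those of the comparison nuclei. With the Trpc4-rule nuclei of cluster 11 alone the log2 fold change of Sst against Chst9 and Grm8 nuclei was 0.13 (adjusted p = 0.855, edgeR). Nos1, at 68.2, 233 and 76.5 CPM in females and 93.2, 132 and 137 CPM in males, was above every library of the comparison nuclei, which reached at most 43.5 CPM (log2 fold changes 1.61, 1.34 and 1.40); without male library 1 its adjusted p against D1-type nuclei was 0.0642 (edgeR). Adamts2, a procollagen protease, and Prss12, the synaptic protease neurotrypsin, lay mostly in cluster 21. Without the Slc17a7-led clusters their log2 fold changes against Chst9 and Grm8 nuclei went from 1.34 to 0.14 (Adamts2) and from 1.16 to 0.07 (Prss12), and neither passed. Adamts2 also did not pass in that comparison without female library 3, at 0.38, nor against Lhx8 and Sema3c nuclei without male library 1 (adjusted p = 0.112) or male library 3 (0.0538, edgeR). Bmper, a BMP-binding protein with 58.2% of its UMIs in cluster 21, Bnc2 with 76.0% in cluster 11, and Slc17a8, a vesicular glutamate transporter with 37.2% in cluster 11, were the others. Slc17a8 was at 14.7, 70.8 and 19.6 CPM in females and 22.2, 38.7 and 61.5 CPM in males, and did not pass against Lhx8 and Sema3c nuclei without male library 1 (adjusted p = 0.168) or male library 3 (0.148), nor against Chst9 and Grm8 nuclei without male library 1 (0.0540) or male library 2 (0.0662, edgeR). Bmper did not pass against D1-type nuclei without male library 1 (adjusted p = 0.102, edgeR).

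**Figure D4:**
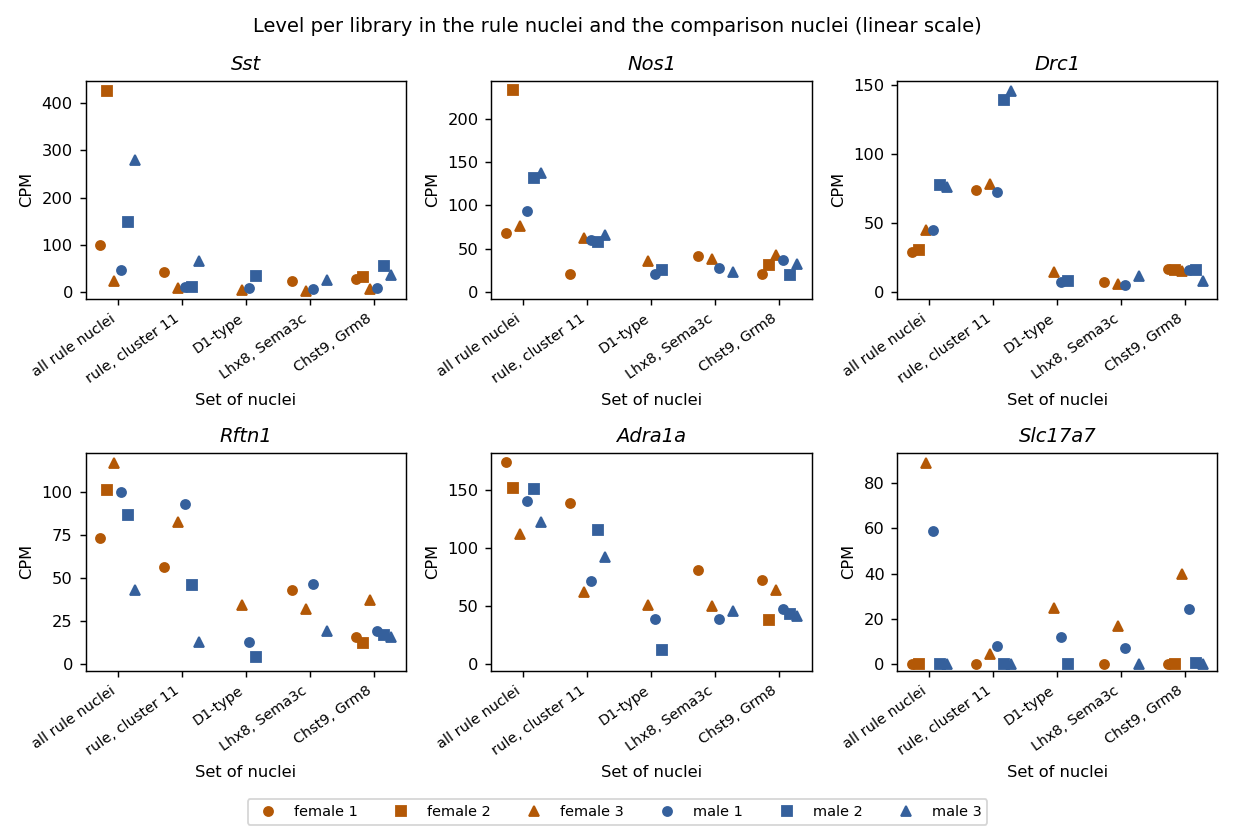
CPM (vertical axes, linear) of 6 genes in each library, for all Trpc4-rule nuclei, those of cluster 11 and the 3 sets of comparison nuclei. Drc1 and Adra1a in all rule nuclei (29.5 to 77.4 and 112 to 174 CPM) lie above every comparison library, Sst spreads from 23.5 to 425 CPM, and Slc17a7 is above 0 among the rule nuclei in female library 3 and male library 1 and in no other library.

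The 8 genes that led those lower in all 3 comparisons were Mme, Atp6ap1l, Rdh10, Frmd4b, Gpr149, Vav3, Enox2 and Ntn1. Mme, the peptidase neprilysin, stood at 15.7, 30.3 and 13.2 CPM in female libraries 1 to 3 and 10.0, 16.1 and 10.9 CPM in male libraries 1 to 3, against 34.7 to 51.4 CPM in D1-type nuclei (-1.91), 23.1 to 27.5 CPM in Lhx8 and Sema3c nuclei (-1.01) and 15.0 to 35.9 CPM in Chst9 and Grm8 nuclei (-1.22). Gpr149, an orphan receptor, had log2 fold changes of -2.12 ± 0.18, -0.73 ± 0.18 and -1.27 ± 0.15, with adjusted p of 1.67e-05, 0.0172 and 6.02e-05 (edgeR). Ntn1, the axon guidance cue netrin-1, had -1.72, -0.49 and -0.89. The differences from Lhx8 and Sema3c nuclei were the least steady: without female library 3 Gpr149 (-0.37), Ntn1 (-0.35), Enox2 (-0.38), Rdh10 (-0.80) and Mme (-1.03) did not pass there, and without male library 1 Mme (-0.85), Rdh10 (-0.91), Enox2 (-0.60), Ntn1 (-0.56) and Vav3 (-0.52) did not. Without male library 3 Enox2 (-0.49) and Ntn1 (-0.45) did not pass there. Mme did not pass against D1-type nuclei without male library 1 (-1.57), nor Rdh10 against Chst9 and Grm8 nuclei without male library 1 (-0.60) or female library 3 (-0.75).

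**Figure D5:**
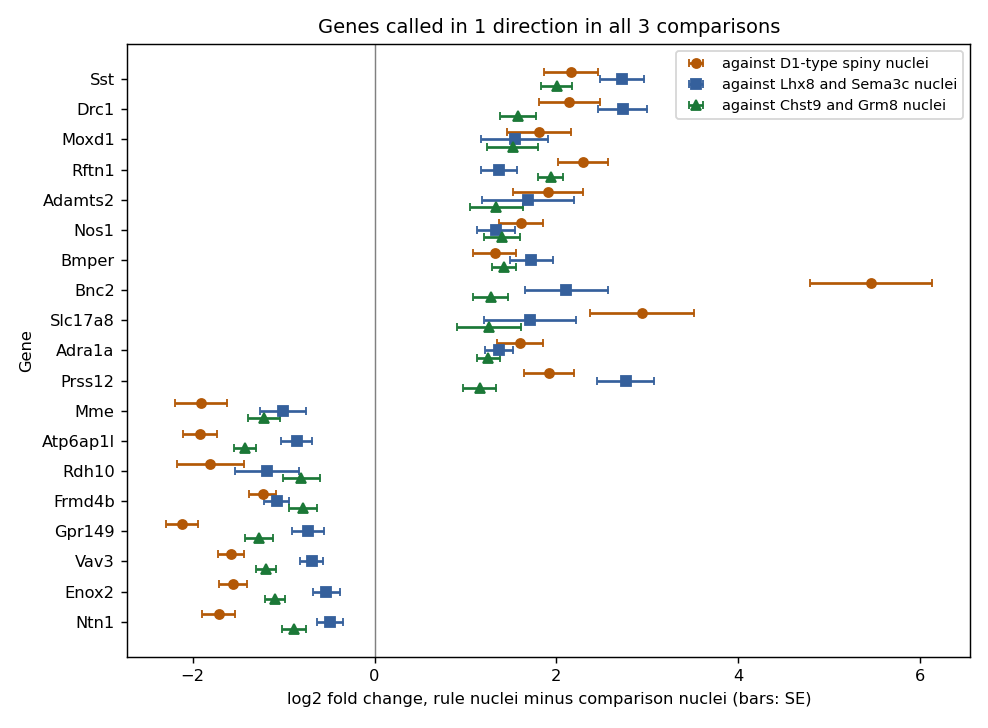
Log2 fold change (horizontal axis, Trpc4-rule nuclei minus comparison nuclei) of the 11 higher and 8 lower genes in each of the 3 comparisons. Bars are standard errors derived from the F statistic of edgeR. All points lie on 1 side of 0 for a gene by the rule that chose them, with Ntn1 against Lhx8 and Sema3c nuclei nearest to it at -0.49; Bnc2 against D1-type nuclei rests on 2 UMIs in the latter.

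The direction of spiny neuron genes depended on the comparison. Against D1-type nuclei 12 of 14 tested genes of the list were lower in the Trpc4-rule nuclei and 0 higher, beside 8.57% lower among all genes, with a median log2 fold change of -2.20 (0.00 over all genes). Against Chst9 and Grm8 nuclei 15 of 17 were lower and 0 higher, beside 10.3%, with a median of -1.65. Against Lhx8 and Sema3c nuclei 0 of 14 were lower and 5 were higher, beside 6.31%, with a median of 0.61. Rgs9, a regulator of G protein signalling in spiny neurons, stood at 93.1, 182 and 78.5 CPM in female libraries 1 to 3 and 77.1, 129 and 116 CPM in male libraries 1 to 3, between the 632 to 1233 CPM of D1-type nuclei and the 25.3 to 34.6 CPM of Lhx8 and Sema3c nuclei (log2 fold changes -3.33 and 1.47). The rules put Pde10a on opposite sides in the D1-type comparison. Lhx8 and Sema3c nuclei, like the Trpc4-rule nuclei, had to have fewer than 5 UMIs of Pde10a, and Chst9 and Grm8 nuclei had no Pde10a limit of their own. The part of these choices in the values of all 3 comparisons was not tested. The count against D1-type nuclei was 10 of 14 without male library 1. In the oligodendrocyte-led cluster, whose nuclei had fewer UMIs, Rgs9 stood at 69.1 CPM, and the part of ambient RNA in its level was not tested.

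In the list of septal genes the tested members outside the rule were Reln, Zic1, Zic4, Ndst4, Tacr1, Dgkg and Dach2. Against D1-type nuclei 5 of 5 tested were higher (6.52% higher over all genes), against Chst9 and Grm8 nuclei 5 of 7 (9.97%) and against Lhx8 and Sema3c nuclei 2 of 5 (6.31%), with Ndst4 lower. The counts without male library 1 were 3 of 4, 5 of 7 and 1 of 5, and without female library 3 the last was 1 of 5. Ndst4 did not pass against Lhx8 and Sema3c nuclei without male library 1 or male library 3 (adjusted p = 0.0779 and 0.0595, edgeR). With the Trpc4-rule nuclei of cluster 11 alone Ndst4 did not pass against D1-type nuclei (0.43, adjusted p = 0.570) or Chst9 and Grm8 nuclei (0.40, adjusted p = 0.448, edgeR). The list was drawn up with earlier results of these nuclei known and holds Reln, so its direction is not independent evidence. Zic4 stood at 13.8, 10.1 and 19.1 CPM in female libraries 1 to 3 and 26.6, 16.1 and 14.5 CPM in male libraries 1 to 3, with log2 fold changes of 2.85 ± 0.53 against D1-type nuclei (adjusted p = 0.00328) and 2.14 ± 0.24 against Chst9 and Grm8 nuclei (adjusted p = 4.22e-05, edgeR). Zic4 did not pass against Lhx8 and Sema3c nuclei (0.54), which had 8.45 to 26.9 CPM and overlapped with the Trpc4-rule nuclei. Tacr1, the substance P receptor, stood at 100 to 172 CPM, with log2 fold changes of 5.21 ± 0.36 against D1-type nuclei and 2.33 against Chst9 and Grm8 nuclei. Changes of these sizes put Zic4 and Tacr1 low in the D1-type nuclei, of which 37, 44 and 25 per library were fitted. The D1-type changes of both genes therefore rest on few UMIs on that side. Tacr1 did not pass against Lhx8 and Sema3c nuclei (0.08), which had 69.0 to 157 CPM.

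Genes of pallidal, basal forebrain and interneuron types were higher in the Trpc4-rule nuclei against D1-type nuclei for 6 of 7 tested (6.52% over all genes) and against Chst9 and Grm8 nuclei for 9 of 9 (9.97%), namely Lhx8, Lhx6, Sema3c, Gbx1, Chat, Slc5a7, Sst, Nos1 and Kit. Nuclei meeting the Lhx8 and Sema3c rule had been left out of the Chst9 and Grm8 nuclei but not of the Trpc4-rule nuclei. Lhx8 and Sema3c are thus a description there, and the part of that choice in the 9 of 9 was not tested. Against Lhx8 and Sema3c nuclei the list went both ways, with Sst, Nos1 and Chst9 higher and Lhx6 (-1.54), Gbx1 (-2.84) and Kit (-0.88) lower, 3 of 8 each, beside 6.31% and 4.79%. Kit did not pass there without female library 3 (adjusted p = 0.0693, edgeR). The counts against D1-type and against Chst9 and Grm8 nuclei were 2 of 6 and 7 of 9 without male library 1, where Chat had an adjusted p of 0.0542 against Chst9 and Grm8 nuclei (edgeR). Sema3c did not pass there without female library 1 (adjusted p = 0.0598), male library 1 (0.0521) or male library 3 (0.0615, edgeR). Lhx6, a LIM factor of neurons from the medial ganglionic eminence, stood at 42.4, 40.4 and 15.2 CPM in female libraries 1 to 3 and 21.3, 32.2 and 28.9 CPM in male libraries 1 to 3, and at 1.15 to 4.75 CPM in Chst9 and Grm8 nuclei (log2 fold change 2.62). Of its UMIs 45.8% lay in cluster 14, and the Trpc4-rule nuclei of cluster 11 had Lhx6 at 2.51 CPM. With cluster 11 alone 4 genes of the list were tested against Chst9 and Grm8 nuclei and 1 was higher.

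Among Trpc channels and the Gq pathway that opens them, 4 of 15 tested genes were higher and 4 lower against Chst9 and Grm8 nuclei, beside 9.97% and 10.3% of all genes. Among those higher were Trpc5 (0.77), a relative of Trpc4, Plcb4 (0.81), a phospholipase C of the Gq pathway, and Htr2c (0.55), a serotonin receptor coupled to Gq. Plcb1 (-0.64), Itpr1 (-1.29) and Itpr2 (-1.13), the latter pair calcium release channels of the endoplasmic reticulum, and the glutamate receptor Grm5 (-0.52) were lower. Plcb4 stood at 207, 80.9 and 126 CPM in female libraries 1 to 3 and 162, 174 and 174 CPM in male libraries 1 to 3, against 61.5 to 110 CPM in Chst9 and Grm8 nuclei. Against D1-type nuclei 3 of 13 were higher, Trpc1 and Plcb4 among them, and 5 lower (6.52% and 8.57% over all genes), and against Lhx8 and Sema3c nuclei 4 of 14 were higher (Trpc7, Htr2c, Plcb1 and Itpr1) and 1 lower (6.31% and 4.79%). The counts against D1-type nuclei without male library 1 were 0 higher and 1 lower of 13; without female library 3 Trpc7 and Itpr1 did not pass against Lhx8 and Sema3c nuclei (adjusted p = 0.382 and 0.105, edgeR), and Trpc7 did not pass there without male library 1 (0.215) or male library 3 (0.0594) either. Plcb1 and Itpr1 were thus lower than in D1-type nuclei (-0.88 and -1.83) and higher than in Lhx8 and Sema3c nuclei (1.16 and 1.07). Htr2c stood at 1007, 991 and 707 CPM in females and 834, 832 and 821 CPM in males, and at 2843 CPM in the Trpc4-rule nuclei of cluster 0.

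Of the prolactin and JAK-STAT list without Prlr, 2 of 11 tested genes passed against D1-type nuclei (15.1% over all genes), 1 of 11 against Lhx8 and Sema3c nuclei (11.1%) and 2 of 12 against Chst9 and Grm8 nuclei (20.3%), which is near the share over all genes. Against D1-type and against Chst9 and Grm8 nuclei these were Ghr, the growth hormone receptor, and Jak2, the kinase bound by both receptors, and both were lower. Neither passed against D1-type nuclei without male library 1 (adjusted p = 0.0911 for Ghr and 0.102 for Jak2), and without female library 1 Ghr had an adjusted p of 0.0509 against Chst9 and Grm8 nuclei (edgeR). Jak2 stood at 105, 131 and 149 CPM in female libraries 1 to 3 and 125, 96.7 and 79.6 CPM in male libraries 1 to 3, against 171 to 233 CPM in D1-type nuclei (log2 fold change -0.78) and 141 to 205 CPM in Chst9 and Grm8 nuclei (-0.63). Ghr was lower than in D1-type nuclei (-0.83) and higher than in Lhx8 and Sema3c nuclei (0.87). Stat5b, a transcription factor that prolactin activates, stood at 91.0 to 151 CPM and did not pass in any of the 3 (-0.09, 0.14 and 0.02). Prl itself had 0 UMIs in the Trpc4-rule nuclei, which allows up to 3 of their 8145531 UMIs.

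Of the glycine receptor list without Glra3, 1 of 5 tested genes was higher and 1 lower against D1-type nuclei (6.52% and 8.57% over all genes), 0 higher and 2 lower of 5 against Lhx8 and Sema3c nuclei (6.31% and 4.79%) and 3 higher and 0 lower of 6 against Chst9 and Grm8 nuclei (9.97% and 10.3%). Glrb, the beta subunit that anchors the receptor, stood at 109, 111 and 121 CPM in female libraries 1 to 3 and 112, 187 and 163 CPM in male libraries 1 to 3, above the 64.5 to 70.5 CPM of D1-type nuclei (0.77) and the 82.4 to 87.8 CPM of Chst9 and Grm8 nuclei (0.53) without overlap. Glrb did not pass against Lhx8 and Sema3c nuclei (-0.01), nor against D1-type nuclei without male library 1 (adjusted p = 0.0746, edgeR). Glra1, an alpha subunit, was higher than in Chst9 and Grm8 nuclei (0.70 ± 0.21, adjusted p = 0.0290), but did not pass without female library 3 (0.163) or male library 1 (0.188, edgeR). Glra2, a further alpha subunit, was lower than in Lhx8 and Sema3c nuclei (-0.57), but not without female library 3, male library 1 or male library 3 (adjusted p of 0.0799, 0.231 and 0.0643, edgeR). It passed as higher than in Chst9 and Grm8 nuclei by 0.25, and leaving out any 1 of the 5 libraries ended that call (adjusted p of 0.0517 to 0.206, edgeR). Gphn, the scaffold gephyrin, was lower than in D1-type nuclei (-0.42) and Lhx8 and Sema3c nuclei (-0.51), and neither call held without female library 3 (adjusted p of 0.102 and 0.0585) or male library 1 (0.584 and 0.0560, edgeR).

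Among genes of dense core vesicle release, the process in which Baiap3 acts, Cadps2 stood out. Cadps2, a priming factor for such vesicles, stood at 381, 222 and 846 CPM in female libraries 1 to 3 and 621, 561 and 318 CPM in male libraries 1 to 3. It was higher than in D1-type nuclei (2.96 ± 0.29, adjusted p = 4.26e-05), Lhx8 and Sema3c nuclei (0.63 ± 0.14, adjusted p = 0.00991) and Chst9 and Grm8 nuclei (1.42 ± 0.14, adjusted p = 1.20e-05, edgeR). Without female library 3 it did not pass against Lhx8 and Sema3c nuclei (adjusted p = 0.125, edgeR). Its level was highest in female library 3, and cluster 21 held 41.4% of its UMIs; in the Trpc4-rule nuclei of cluster 11 it stood at 764 CPM. Over the list 3 of 14 tested were higher and 2 lower against D1-type nuclei (6.52% and 8.57% over all genes), 4 and 1 of 14 against Lhx8 and Sema3c nuclei (6.31% and 4.79%) and 5 and 2 of 14 against Chst9 and Grm8 nuclei (9.97% and 10.3%). Unc13c, a Munc13 protein, was lower than in D1-type nuclei (-1.17) and Chst9 and Grm8 nuclei (-1.18) and higher than in Lhx8 and Sema3c nuclei (1.26).

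Of the genes that carry the reelin signal, Lrp8, a reelin receptor, was higher than in D1-type nuclei (1.12) and Chst9 and Grm8 nuclei (0.79) and lower than in Lhx8 and Sema3c nuclei (-0.55). Lrp8 stood at 139, 121 and 99.8 CPM in female libraries 1 to 3 and 98.0, 113 and 94.1 CPM in male libraries 1 to 3, above the D1-type nuclei, at most 54.6 CPM, and the Chst9 and Grm8 nuclei, at most 72.4 CPM. Lrp8 did not pass against D1-type nuclei without male library 1 (adjusted p = 0.11), nor against Lhx8 and Sema3c nuclei without female library 3 (0.289), male library 1 (0.223) or male library 3 (0.0902, edgeR). Dab1, the adaptor downstream of that receptor, was higher than in Chst9 and Grm8 nuclei (0.45). Rapgef1, of the same list, was lower than in D1-type and in Chst9 and Grm8 nuclei. Over the list, Reln included, 2 of 9 tested genes were higher and 1 lower against D1-type nuclei (6.52% and 8.57% over all genes). The counts were 1 and 1 of 9 against Lhx8 and Sema3c nuclei (6.31% and 4.79%) and 3 and 1 of 9 against Chst9 and Grm8 nuclei (9.97% and 10.3%). Among steroid and hormone receptors Esr1 (0.37, adjusted p = 0.0406, edgeR) and Pgr (0.89) were higher than in Chst9 and Grm8 nuclei, beside 4 of 18 higher and 5 lower over that list (9.97% and 10.3% over all genes). Neither passed against Lhx8 and Sema3c nuclei. Esr1 did not pass against Chst9 and Grm8 nuclei without female library 1 (adjusted p = 0.0667), female library 3 (0.103) or male library 1 (0.294, edgeR).

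Markers of other cells were present in the Trpc4-rule nuclei. Summed oligodendrocyte markers ran from 264 to 774 CPM by library, with 6 or 7 of 7 genes present, and astrocyte markers from 122 to 401 CPM, with 5 to 8 of 8 present. Microglial markers ran from 9.15 to 54.8 CPM and those of oligodendrocyte precursors from 0 to 127 CPM. Endothelial and mural markers ran from 82.4 to 290 CPM. Choroid plexus and ependymal markers ran from 6.10 to 10.9 CPM, and among them Ttr, the defining gene of choroid plexus, was at 0. Against Chst9 and Grm8 nuclei 6 of 7 oligodendrocyte, 3 of 5 astrocyte and 3 of 3 microglial genes tested were lower in the Trpc4-rule nuclei, beside 10.3% of all genes, and against D1-type nuclei 0 of 7, 1 of 4 (Slc4a4) and 0 of 1 were, beside 8.57%. Against Lhx8 and Sema3c nuclei the astrocyte gene Slc4a4 (1.47) and the mural list gene Ebf1 (1.51) were higher and Aldoc, of the astrocyte list, lower (-0.71), while 0 of 7 oligodendrocyte genes passed. Ebf1 did not pass there without female library 3 (adjusted p = 0.147) or male library 3 (0.0600), nor Aldoc without female library 3 (0.212) or male library 1 (0.413, edgeR). The counts against Chst9 and Grm8 nuclei were 4 of 7, 2 of 5 and 1 of 4 without male library 1. The part of these markers in the other differences was not tested; with the doublets removed the count of genes passing against Chst9 and Grm8 nuclei was 2169, with 1253 higher and 916 lower.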

How the data were processed

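The values are raw UMI counts per gene and nucleus, which the authors made with Cell Ranger 4.0.0, per the file headers, against the rat build rn6, per the submitters' processing notes. The deposited barcodes and gene names, which hold no measurement, were matched to the deposited count matrices by order. Of 41974 barcodes 37456 were kept, and every barcode had at least 500 UMIs. Scrublet's own threshold marked 0% to 34.2% of a library, so doublets stayed in, and an alternative removed the nuclei of highest score, 0.8% per 1000 nuclei.

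Clusters came from Leiden (scanpy 1.11.5, resolution 1, 3000 variable genes without the 5 rule genes, 30 principal components, 20 neighbours). Counts were summed per library and set of nuclei, for libraries with at least 20 nuclei (10 for cluster 11 alone), and tested with edgeR 4.0.16 (TMM, filterByExpr, quasi-likelihood) with Benjamini-Hochberg adjustment over all genes at 0.05. The sex model had the label set as a term, and the 3 comparisons had the library as a block, since both sides come from the same pool. The standard errors given with edgeR values were derived as the absolute log2 fold change over the square root of the F statistic. DESeq2 1.42.0 was an alternative. The edgeR fits were also run on simulated counts with known changes.

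Named genes were those of the lists, the genes passing by sex and the next 5 by p, and, among genes passing in 1 direction in all 3 comparisons, the 12 higher and 8 lower with the largest smallest change, Reln included; the 4 of smallest p in each direction of each comparison appear where they add to these or in the closing observations. Some genes counted in the lists are not reported here by name. The set of nuclei and the gene lists were chosen with earlier results of these data known. Clusters as a filter, the wider spiny group and the fit with female library 2 were chosen after seeing the data. A neuronal denominator used Rbfox3, Snap25 and Syt1, as Meg3 was not used here. Replicate numbers were not taken to pair the sexes, as no source ties a number to a shared batch. Deviations of same-numbered libraries correlated at -0.434, 0.0473 and -0.408. These values cannot decide on pairing, since the libraries numbered 1 and those numbered 3 lie in different label sets. Female library 3 and male library 1, of the same label set, correlated at 0.648.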

Additional observations from a re-analysis of the deposited data

How the results depend on the processing

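The count of genes differing by sex was 14 with no low-count filter, 4 with no label set term and 8 to 27 with 1 library left out; it was 6 to 12 under the other settings, DESeq2 included. With a replicate block in place of the label set it was 0 (13 at an unadjusted p under 0.05, edgeR). Against D1-type, Lhx8 and Sema3c, and Chst9 and Grm8 nuclei the counts with no replicate block, that is with the library pairing ignored, were 455, 93 and 590. With DESeq2 they were 662 and 522 in the first 2 and 1811 in the third. Leaving out 1 library gave 292 to 1841, 367 to 1417 and 1396 to 2089. With no low-count filter the count against Lhx8 and Sema3c nuclei was 1569, of which 1062 were higher, and the wider spiny group of 8077 nuclei gave 3114. The cause of these moves was not tested. With the Trpc4-rule nuclei of cluster 11 alone, log2 fold changes of named genes changed sign against D1-type nuclei for Chst9 (-1.14, passing) and Gad2 (0.080), against Lhx8 and Sema3c nuclei for Trpc7 (-0.67), and against Chst9 and Grm8 nuclei for Glra2 (-0.43) and Unc13b (-0.59), both passing, and for Sema3c (-0.20), Esr1 (-0.040) and Crhr1 (-0.44); this alternative holds fewer nuclei and 1 of the clusters. The cluster with most Trpc4-rule nuclei held 47.4% of them at resolution 0.5 (443, of which 270 were in cluster 11 at resolution 1) and 28.6% at resolution 2 (267, all in cluster 11). The difference in share by sex was positive under every setting tried, from 0.0176 points for cluster 11 alone, where it was -0.155 and 0.104 within the label sets, to 1.44 without female library 2. The set is small in 4 libraries, with 19 to 107 nuclei, and this limits what the sex comparison can detect.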

Other observations

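Among genes with the smallest p in a single comparison, Ngef, Caln1, Gria1 and Klhl1 passed in opposite directions in different comparisons. Ngef, a guanine nucleotide exchange factor, was lower than in D1-type nuclei (log2 fold change -1.60) and Chst9 and Grm8 nuclei (-1.32) and higher than in Lhx8 and Sema3c nuclei (2.41). Caln1, a calcium-binding protein, did the same (-1.53, -1.19 and 1.83). Gria1, a subunit of AMPA receptors, was higher than in Lhx8 and Sema3c nuclei (2.31) and lower than in Chst9 and Grm8 nuclei (-0.45), and did not pass against D1-type nuclei (-0.42). Klhl1 ran the other way, higher than in D1-type nuclei (0.67) and Chst9 and Grm8 nuclei (1.10) and lower than in Lhx8 and Sema3c nuclei (-1.55). Strip2 (-3.81 and -2.88), Nexn (-3.65 and -2.52), Prkch (-3.50 and -2.75), Pard3 (-2.15 and -1.66) and Foxp2 (-1.76 in both) were lower than in D1-type and in Chst9 and Grm8 nuclei and did not pass against Lhx8 and Sema3c nuclei. Ano1, Adcy8, an adenylyl cyclase stimulated by calcium, and Clmp, an adhesion molecule, were higher than in Chst9 and Grm8 nuclei (3.36, 1.71 and 1.75) and did not pass against Lhx8 and Sema3c nuclei (0.34, -0.28 and -0.07). Megf10 (-2.02), Kcnip4 (-1.14) and Pld5 (-1.34) were lower than in Lhx8 and Sema3c nuclei and did not pass in the other 2 comparisons.

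Of the neuropeptide list, 4 of 7 tested genes were lower against D1-type nuclei and 1, Sst, was higher (8.57% and 6.52% over all genes). The lower genes were Pdyn, prodynorphin (-3.32), Cartpt (-1.78), Tac1 (-2.28) and Nts. Cartpt did not pass there without male library 1 (adjusted p = 0.0746, edgeR). Against Chst9 and Grm8 nuclei 5 of 8 were lower and 2, Sst and Cck, were higher (10.3% and 9.97%). Pdyn (-1.82), Cartpt (-1.34), Penk, proenkephalin (-1.28), Tac1 (-0.76) and Tac3 were the lower ones. Against Lhx8 and Sema3c nuclei 2 of 4 were higher (6.31%), Sst and Tac1, and 0 were lower. Tac1 (1.20) did not pass there without male library 3 (adjusted p = 0.0642, edgeR). Of the immediate early genes, 2 of 9 tested were lower against D1-type nuclei (Arc and Homer1; 8.57% over all genes), 1 of 9 was higher (Bdnf) and 1 lower (Homer1) against Chst9 and Grm8 nuclei (9.97% and 10.3%), and 3 of 6 were higher (6.31%) against Lhx8 and Sema3c nuclei (Egr1, Nr4a3 and Homer1), of which 1 passed without female library 3 and 2 without male library 1 or male library 3. Homer1 did not pass against Chst9 and Grm8 nuclei without female library 1 or male library 2 (adjusted p of 0.0540 and 0.0602, edgeR), and without male library 1 0 of 8 were higher there. Summed over the list, immediate early genes in the Trpc4-rule nuclei ran from 171 CPM in male library 2 to 1038 CPM in female library 3, and the next highest, 716 CPM, was in male library 1.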
